A study of Mus musculus with 39 samples.

Results

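Endoplasmic reticulum chaperones and genes of the unfolded protein response were followed in the brain of mice given soman, a nerve agent of the organophosphate class and an inhibitor of acetylcholinesterase. The list held 33 genes, taken by gene symbol from a table of 47561 genes. Brain RNA was sequenced from 39 libraries in 13 groups of 3. The animals of 12 groups received soman under the skin, in a dose of 1/2, 1/5 or 1/10 of the LD50 (lethal to 50% of animals), with brains taken at day 1, 3, 7 or 14, and the animals of the remaining group received saline. The labels give no strain, sex or age, do not say how many animals went into a library or how often soman was injected, and give no day for the saline brains. The same 3 saline libraries serve as control for all 12 soman groups, so a difference from saline cannot be told apart from a difference between collection days. The design text calls the samples of a group biological replicates.

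The endoplasmic reticulum is where secreted and membrane proteins enter the secretory pathway, fold and form disulfide bonds. When unfolded proteins build up there, the membrane sensors encoded by Ern1, Eif2ak3 and Atf6 are activated as the chaperone Hspa5 (BiP) leaves them. They slow translation and raise transcription of chaperones, folding enzymes and degradation factors through the transcription factors XBP1, ATF6 and ATF4. Neurons make large amounts of membrane and secreted protein and use this machinery without any stress as well.

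Values were FPKM, fragments scaled to transcript length and to the mapped fragments of the library, so that levels may be compared between genes. Tests ran on log2(FPKM + 1) with limma, in 1 model of all 39 libraries, with the Benjamini-Hochberg adjustment over all 14701 genes at 1 FPKM or more in at least 3 libraries. A gene is said to have fallen or risen where its adjusted p was below 0.05. Of the 33 genes 32 passed this filter. Trib3, a pseudokinase induced by ATF4 and CHOP, did not, as its highest library was at 0.583 FPKM. The table holds FPKM alone, so sequencing depth is unknown.

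Transcription of many of these genes runs through the endoplasmic reticulum stress response element (ERSE), to which NF-Y and ATF6 or XBP1 bind, or its compact form, ERSE-II. Both were searched as exact consensus letters on both strands. Promoter windows of RefSeq (build GRCm38.p6, 250 bases before to 50 after each start) were found for 28 of the 33 genes. ERSE was present on 1 strand or the other in 9 of these 28 (Hspa5, Hsp90b1, Calr, Canx, Dnajc3, Pdia6, Creld2, Syvn1 and Derl3), against 0.119% of all 32851 windows. ERSE-II was present in Herpud1 and, 7 to 17 bases after the start, in Dnajb11, against 0.0365% of windows. A match is a description of the letters, not of binding. The stretches below belong to genes whose levels the results turn on. They are given 5′ to 3′ on the gene's strand and end before the start site, and capitals mark the ERSE or, in Herpud1, the ERSE-II.
Hspa5: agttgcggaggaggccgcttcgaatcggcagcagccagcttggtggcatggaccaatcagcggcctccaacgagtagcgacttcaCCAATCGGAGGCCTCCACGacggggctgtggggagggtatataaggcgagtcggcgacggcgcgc
Pdia6: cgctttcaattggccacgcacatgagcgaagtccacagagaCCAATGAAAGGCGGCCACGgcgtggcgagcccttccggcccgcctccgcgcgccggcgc
Creld2: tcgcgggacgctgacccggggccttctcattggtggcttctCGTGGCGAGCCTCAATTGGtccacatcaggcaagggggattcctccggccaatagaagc
Calr: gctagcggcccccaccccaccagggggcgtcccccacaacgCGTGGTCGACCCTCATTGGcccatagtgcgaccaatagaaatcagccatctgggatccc
Dnajc3: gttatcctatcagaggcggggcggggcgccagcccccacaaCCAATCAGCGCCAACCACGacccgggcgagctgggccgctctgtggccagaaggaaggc
Hsp90b1: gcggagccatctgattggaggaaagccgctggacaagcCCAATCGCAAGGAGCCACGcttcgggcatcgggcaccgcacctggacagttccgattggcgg
Herpud1: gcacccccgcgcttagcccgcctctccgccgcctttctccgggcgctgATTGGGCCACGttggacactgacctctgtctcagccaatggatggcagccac

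These stretches lie at chr2:34771940-34772089 on the plus strand (Hspa5), chr12:17266450-17266549 plus (Pdia6), chr15:88819479-88819578 plus (Creld2), chr8:84847035-84847134 minus (Calr), chr14:118937786-118937885 plus (Dnajc3), chr10:86705595-86705694 minus (Hsp90b1) and chr8:94386329-94386428 plus (Herpud1). In Hspa5 the match ends 47 bases before the start. In Creld2 and Calr it lies on the opposite strand. Hsp90b1 has a further match, on the opposite strand, 107 to 89 bases before its start. For Dnajc3 and Herpud1 the bases that follow the start used here were not found in a GENCODE vM21 transcript of the gene. The shorter UPRE motif was in none of the 28 genes' windows and in 0.676% of all windows, and the ATF4 motif CARE was in Trib3 and Herpud1 and in 3.97% of all windows.

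Some libraries were singled out for checks. Replicates 2 and 3 of 1/10 LD50 at day 7 had 23.1% and 27.6% of their FPKM in mitochondrial genes, while the next highest library had 15.4%. In 7 libraries (1/10 LD50 day 7 replicate 2, and the replicates 3 of saline, of all day 1 groups and of 1/10 and 1/5 LD50 at day 14) gene values were intermediate to the 2 companion libraries more often than in any of the 36 libraries of other groups put in the same place. Only genes at a mean of 5 FPKM or more, with companions more than 2 times apart, entered this share. Intermediate means 0.3 to 0.7 of the way between them. A library may pass by sharing a group with its companions, so the 7 are not shown to be faulty. As a check, counts are also given without the 2 of high mitochondrial share and without the 7. Markers of meningeal fibroblasts, cells of the membranes around the brain, summed to 102 to 118 FPKM in saline, 89.8 to 112 at day 1, 66.8 to 89.7 at day 3, 54.1 to 81.7 at day 7 and 70.8 to 85.8 at day 14. Of 15 such markers none fell at day 1, 7 to 12 fell in the groups of day 3, 10 to 13 in those of day 7 and 2 to 7 in those of day 14. Of the marker lists of neurons, astrocytes, oligodendrocytes, microglia, endothelium and choroid plexus, at most 4 genes of any 1 list fell in any group, and no marker of any list was at 0 in a whole group. The 10 tested choroid plexus markers had median differences of -0.48, -0.41 and -0.37 on day 3, for the doses in rising order. On day 7 these were -0.37, -0.44 and -0.52, where 3, 3 and 4 of the 10 fell (15.3%, 8.87% and 6.68% of all tested genes) and none rose. The 10 oligodendrocyte markers summed to 3334 to 3529 FPKM in saline, 2382 to 3215 at 1/10, 2823 to 3714 at 1/5 and 3292 to 5074 at 1/2 LD50 on day 1. All 3 libraries of 1/10 LD50 on day 1 were thus below saline. The part of meninges, of choroid plexus or of oligodendrocytes in the results was not tested. In bulk tissue, fewer cells of a type and less RNA per cell cannot be told apart.

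At 1/10 LD50 on day 1, 15 of the 32 genes tested fell and none rose, against 0.279% of all tested genes that fell and 0.068% that rose. The 15 were 7 of the 9 chaperones and co-chaperones, 3 of the 5 disulfide and proline isomerases, both secreted factors, Xbp1 and Ddit3 among the regulators and Herpud1 among the degradation factors. The median difference was -0.34 on the log2 scale for the 32 genes and -0.02 for all tested genes. In 23 of the 32 all 3 libraries lay below all 3 of saline, which was so for 13.4% of all tested genes. The median of the 10 oligodendrocyte markers was -0.31 in this comparison and 0.27 at 1/2 LD50 on day 1. None fell in either, 1 rose at 1/2 LD50 (0.0272% of all tested genes), and their part was not tested. Without the 7 libraries, which leaves 2 in each group compared, 7 of the 15 still passed (Hspa5, Pdia4, Manf, Calr, Creld2, Xbp1 and Hsp90b1), and without the 2 of high mitochondrial share all 15 and a further 2 did.

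Hspa5 encodes BiP, the main ATP-dependent chaperone of this compartment. Its level was 175, 168 and 181 FPKM in the saline libraries and 77.0, 69.0 and 81.8 at 1/10 LD50 on day 1 (log2 difference -1.19, SE 0.13, adjusted p = 2.05e-06). The group means were 175 ± 6.69 and 75.9 ± 6.51 FPKM (SD, n = 3 each), and the groups did not overlap. At 1/5 LD50 its libraries were at 97.9, 146 and 118 FPKM, and it did not pass the threshold (-0.55, SE 0.13, adjusted p = 0.135). At 1/2 LD50 they were at 101, 122 and 110.4 FPKM (-0.65, SE 0.13, adjusted p = 0.0212). All 9 soman libraries of day 1 were therefore below all 3 of saline, with the lowest dose lowest.

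The day 3 libraries of Hspa5 were at 108, 111 and 97.6 FPKM at 1/10, 90.1, 90.5 and 87.1 at 1/5 and 103, 96.9 and 77.8 at 1/2 LD50, so that the doses lay close together. At day 7 they were at 149, 136 and 99.3, 185, 184 and 155, and 103, 93.5 and 99.6 FPKM in the same order. The intermediate dose overlapped saline, and the lowest and highest doses lay below it. Hspa5 passed at both, but at 1/10 LD50 not without replicate 3. At day 14 they were at 175, 156 and 189.8, 185, 162 and 163, and 167, 187 and 179 FPKM, and every group overlapped saline. Hspa5 fell in 7 of the 12 comparisons with saline, and its 13 group means ran from 75.9 (1/10 LD50, day 1) to 177 FPKM (1/2 LD50, day 14).

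**Figure D1:**
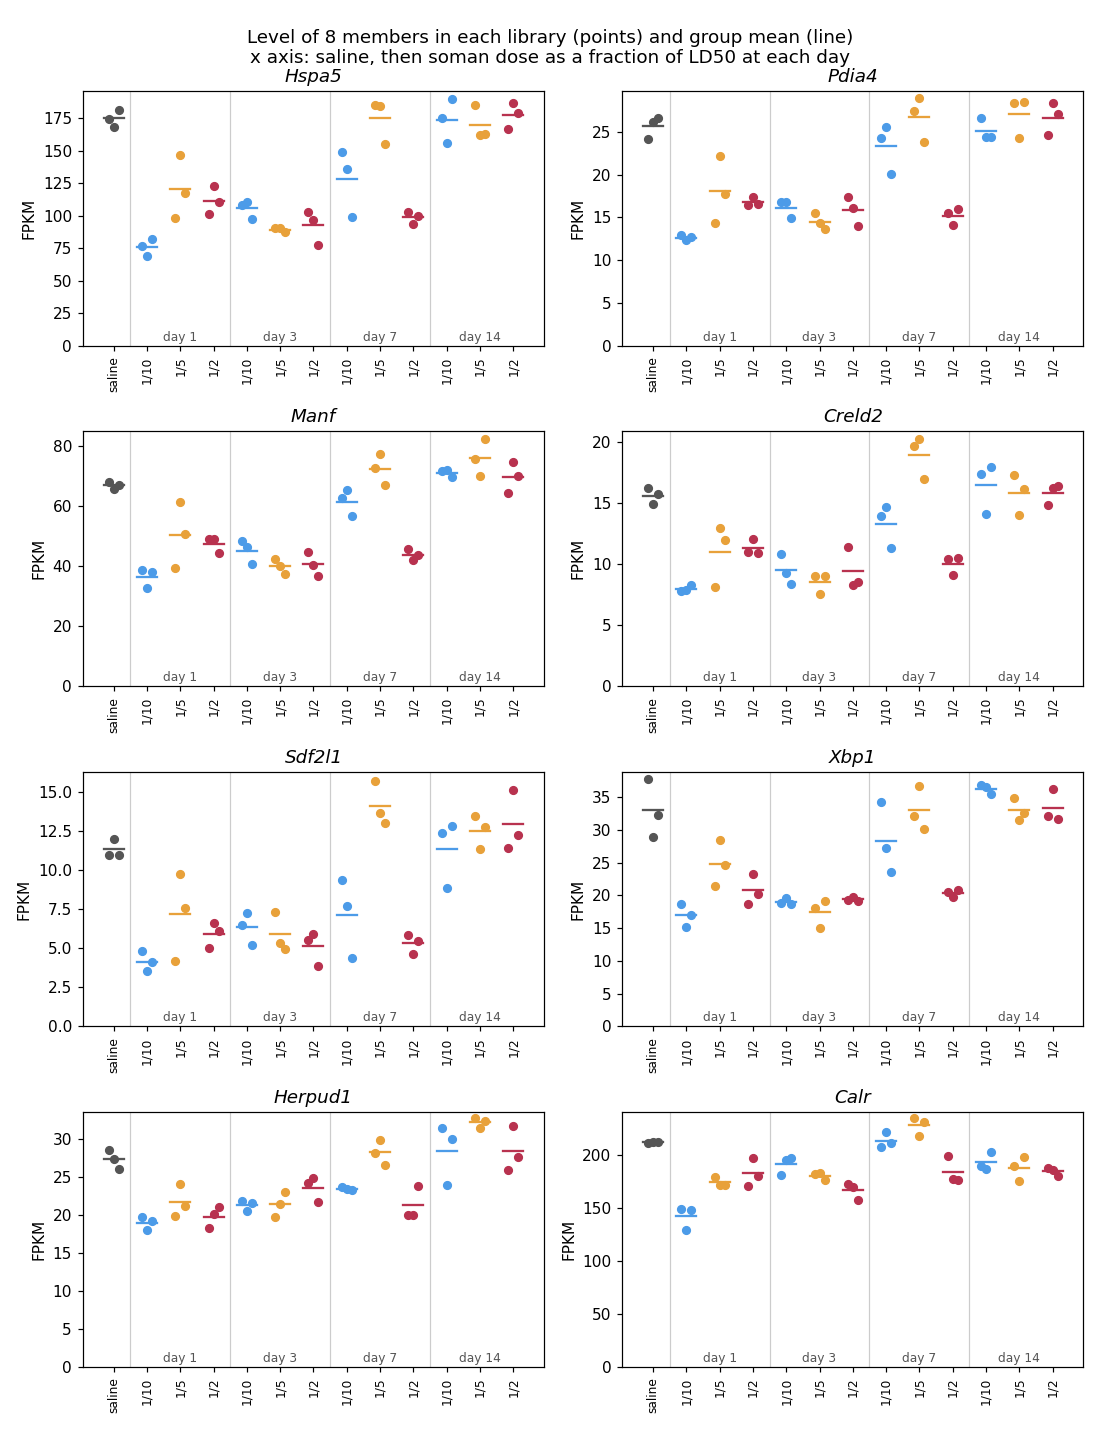
Level (FPKM, axis from 0) of Hspa5, Pdia4, Manf, Creld2, Sdf2l1, Xbp1, Herpud1 and Calr in each of the 39 libraries. Points are libraries, lines are means of 3, and groups run from saline through the doses of day 1, 3, 7 and 14. The mean of Hspa5 is 175 in saline, 75.9 at 1/10 LD50 on day 1, 175 at 1/5 and 98.7 at 1/2 LD50 on day 7.

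Sdf2l1, an Hspa5 partner that keeps unfolded clients from aggregating, was the chaperone with the most negative difference at 1/10 LD50 on day 1. Its saline libraries were at 11.0, 12.0 and 11.0 FPKM and those of 1/10 LD50 on day 1 at 4.81, 3.52 and 4.13 (-1.27, SE 0.21, adjusted p = 0.00119). The other groups of day 1 were at 4.17, 9.76 and 7.60 (1/5 LD50) and 5.04, 6.62 and 6.10 FPKM (1/2 LD50). None of these 9 libraries reached the lowest saline library, although 1/5 LD50 replicate 2 came close and neither of the higher doses passed the test. At day 3 it was at 6.50, 7.30 and 5.23 (1/10), 7.36, 5.37 and 4.97 (1/5) and 5.55, 5.95 and 3.88 FPKM (1/2 LD50), and it fell at each dose. At day 7 it was at 9.37, 7.71 and 4.41 (1/10), 15.7, 13.6 and 13.1 (1/5) and 5.85, 4.67 and 5.46 FPKM (1/2 LD50). The 1/5 LD50 libraries of day 7 were all above saline, without passing the test (0.29, SE 0.21, adjusted p = 0.356), and the 1/2 LD50 libraries were all below it (-0.97, SE 0.21, adjusted p = 0.00369). Those of 1/10 LD50 on day 7 were also all below saline and passed, but not without replicate 3. At day 14 the libraries were at 12.4, 8.85 and 12.9, 13.5, 11.3 and 12.8, and 11.4, 15.2 and 12.3 FPKM for the doses in rising order, and did not pass the test.

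Hyou1, an HSP110-type nucleotide exchange factor for Hspa5, was at 35.96, 34.0 and 34.4 FPKM in saline and 24.4, 22.9 and 23.9 at 1/10 LD50 on day 1 (-0.53, SE 0.089, adjusted p = 0.00163). Its lowest group was 1/5 LD50 on day 3, at 22.1, 24.6 and 24.2 FPKM (-0.54, SE 0.089, adjusted p = 0.000368). Dnajc3 (P58IPK), a co-chaperone that also restrains eIF2-alpha kinases, was at 14.1, 13.2 and 14.8 FPKM in saline and reached its lowest mean at 1/2 LD50 on day 7, at 8.47, 8.73 and 9.60 (-0.60, SE 0.092, adjusted p = 0.000301). Both fell at every dose of day 3, with groups that did not overlap saline. Dnajb11 (ERdj3), which hands clients to Hspa5, was at 31.3, 33.4 and 31.7 FPKM in saline and 25.8, 21.4 and 22.6 at 1/10 LD50 on day 1 (-0.45, SE 0.084, adjusted p = 0.00498). It fell in 4 comparisons and its highest mean was at 1/5 LD50 on day 7, at 38.8, 34.4 and 35.0 FPKM.

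The most abundant members in saline were Calr, Hsp90b1 and Hspa5. Calr (calreticulin), the soluble lectin chaperone of glycoproteins, was at 211, 212 and 212 FPKM in saline and 149, 129 and 148 at 1/10 LD50 on day 1 (-0.57, SE 0.063, adjusted p = 2.05e-06). Hsp90b1 (GRP94), the HSP90 of this compartment, was at 185, 167 and 185 and 133, 114 and 131 FPKM in the same groups (-0.50, SE 0.069, adjusted p = 8.64e-05). Neither pair of groups overlapped, and both genes also fell at 1/2 LD50 on day 3 and day 7. The membrane lectin chaperone Canx (calnexin) fell only at 1/10 LD50 on day 7, where its libraries were at 85.4, 89.9 and 66.1 FPKM against 92.9, 93.6 and 99.2 in saline (-0.25, SE 0.078, adjusted p = 0.0236). Dnajb9 (ERdj4), a co-chaperone, was the 1 chaperone that rose: at 1/10 LD50 on day 7 it was at 18.7, 21.2 and 25.6 FPKM against 17.7, 15.8 and 18.6 in saline (0.31, SE 0.077, adjusted p = 0.00768). Replicate 3, the library of highest mitochondrial share, was at the extreme for both Canx and Dnajb9, and without the 2 libraries of high mitochondrial share the differences were -0.16 and 0.10 and neither passed. That leaves 1 library in the group, which is assumed to vary like the other groups.

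Among the disulfide isomerases Pdia4 (ERp72) changed most. It was at 24.2, 26.2 and 26.6 FPKM in saline and at 12.9, 12.3 and 12.7 at 1/10 LD50 on day 1 (-0.97, SE 0.10, adjusted p = 2.05e-06). The other groups of day 1 were at 14.3, 22.1 and 17.8 (1/5) and 16.5, 17.4 and 16.6 FPKM (1/2 LD50). At day 3 the libraries were at 16.8, 16.8 and 14.9 (1/10), 15.5, 14.4 and 13.6 (1/5) and 17.4, 16.1 and 14.0 FPKM (1/2 LD50). All 18 soman libraries of days 1 and 3 were below saline. At day 7 Pdia4 was at 24.2, 25.6 and 20.1 (1/10), 27.4, 29.0 and 23.8 (1/5) and 15.5, 14.1 and 16.0 FPKM (1/2 LD50), only the highest dose lying apart from saline (-0.72, SE 0.10, adjusted p = 0.000153). At day 14 it was at 26.6, 24.4 and 24.4 (1/10), 28.3, 24.3 and 28.6 (1/5) and 24.6, 28.4 and 27.0 FPKM (1/2 LD50).

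Pdia6 (P5), which also damps the Ern1 signal, was at 63.8, 63.2 and 65.6 FPKM in saline and 42.6, 37.6 and 41.2 at 1/10 LD50 on day 1 (-0.65, SE 0.10, adjusted p = 0.000956). Pdia3 (ERp57), the disulfide isomerase that works with calreticulin and calnexin, was at 121, 109 and 117 and 89.0, 78.8 and 87.0 FPKM in these groups (-0.44, SE 0.068, adjusted p = 0.000464). The groups did not overlap for either gene. P4hb, the classical protein disulfide isomerase, passed in none of the 12 comparisons, and its group means were between 34.6 and 42.8 FPKM. Ppib (cyclophilin B), a proline isomerase, rose at 1/5 LD50 on day 7, with 78.0, 85.5 and 90.4 FPKM against 72.7, 70.7 and 66.9 in saline (0.27, SE 0.086, adjusted p = 0.0355). Its level is uncertain, since 57.6% of its exonic bases in GENCODE vM21 overlap Snx22 on the opposite strand and the sources used here do not give the strandedness of the libraries. The same holds to a lesser degree for Sec61a1 (17.3%), Hsp90b1 (14.7%) and Eif2ak3 (10.0%).

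Both secreted factors fell at 1/10 LD50 on day 1 and at each dose of day 3, and Manf also at 1/2 LD50 on day 1. Manf, a neurotrophic factor held in the endoplasmic reticulum and released under stress, was at 68.2, 66.0 and 67.0 FPKM in saline. At day 1 it was at 38.7, 32.7 and 38.1 (1/10; -0.86, SE 0.10, adjusted p = 7.57e-06), 39.3, 61.4 and 50.7 (1/5) and 48.9, 49.0 and 44.3 FPKM (1/2 LD50; -0.49, SE 0.10, adjusted p = 0.0404). At day 3 it was at 48.4, 46.4 and 40.7 (1/10), 42.5, 40.0 and 37.5 (1/5; -0.73, SE 0.10, adjusted p = 7.42e-05) and 44.8, 40.6 and 36.8 FPKM (1/2 LD50). No library of these 18 reached the saline range. At day 7 it was at 62.9, 65.4 and 56.6 (1/10), 72.6, 77.5 and 67.0 (1/5) and 45.8, 42.1 and 43.6 FPKM (1/2 LD50; -0.60, SE 0.10, adjusted p = 0.000469), and at day 14 at 71.7, 72.1 and 69.8, 75.9, 70.1 and 82.5, and 64.5, 74.7 and 70.1 for the doses in rising order. Of the groups of these later days only 1/2 LD50 on day 7 passed the test.

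Creld2, a secreted disulfide isomerase-like protein, was at 16.3, 14.9 and 15.7 FPKM in saline and 7.79, 7.90 and 8.29 at 1/10 LD50 on day 1 (-0.89, SE 0.13, adjusted p = 0.000131). On day 3 its libraries were at 10.8, 9.30 and 8.41 (1/10), 9.02, 7.57 and 9.05 (1/5) and 11.4, 8.31 and 8.57 FPKM (1/2 LD50), each group below saline and past the threshold. On day 7 they were at 13.9, 14.7 and 11.4 (1/10), 19.7, 20.3 and 17.01 (1/5) and 10.4, 9.15 and 10.5 FPKM (1/2 LD50). The 1/5 LD50 libraries of day 7 were above saline without passing (0.26, SE 0.13, adjusted p = 0.159), and the 1/2 LD50 libraries were below it (-0.59, SE 0.13, adjusted p = 0.00329).

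Of the sensors and transcription factors, Xbp1 followed the chaperones. XBP1 is the transcription factor made active when the Ern1 product splices its mRNA, and FPKM per gene does not separate the spliced from the unspliced form. Xbp1 was at 37.7, 28.9 and 32.3 FPKM in saline and 18.7, 15.2 and 16.98 at 1/10 LD50 on day 1 (-0.92, SE 0.11, adjusted p = 9.24e-06). At 1/5 and 1/2 LD50 on day 1 it was at 21.4, 28.5 and 24.6, and 18.7, 23.3 and 20.2 FPKM, and the latter passed (-0.64, SE 0.11, adjusted p = 0.0103). Day 3 gave 18.8, 19.6 and 18.7 (1/10), 18.1, 15.1 and 19.2 (1/5) and 19.3, 19.7 and 19.1 FPKM (1/2 LD50), all below saline and all past the threshold. At day 7 it was at 34.3, 27.2 and 23.5 (1/10), 32.2, 36.7 and 30.1 (1/5) and 20.4, 19.8 and 20.9 FPKM (1/2 LD50; -0.66, SE 0.11, adjusted p = 0.000461).

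Ddit3 (CHOP), the transcription factor linked to cell death in prolonged stress, fell only at 1/10 LD50 on day 1, with 11.4, 11.9 and 12.4 FPKM against 17.6, 19.4 and 18.7 in saline (-0.60, SE 0.14, adjusted p = 0.0392). This call was lost when any 1 of the 3 saline libraries or of the 3 of 1/10 LD50 was left out (adjusted p from 0.0659 to 0.151). Atf4, the transcription factor translated when eIF2-alpha is phosphorylated, rose only at 1/5 LD50 on day 7, with 44.3, 45.9 and 45.7 FPKM against 38.8, 36.4 and 36.6 (0.28, SE 0.077, adjusted p = 0.0138). After removal of the dependence on transcript length within each library this difference was 0.16 (adjusted p = 0.0848). Its means at day 14, 44.2, 46.6 and 43.2 FPKM for the doses in rising order, were at or near its highest, without passing against saline.

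The sensors themselves passed in few comparisons. Eif2ak3 (PERK) was at 6.47, 6.05 and 5.60 FPKM at 1/5 LD50 on day 7 against 7.31, 8.27 and 7.70 in saline (-0.32, SE 0.10, adjusted p = 0.0364). Atf6 was at 8.16, 6.90 and 7.39 FPKM in that group against 9.22, 9.07 and 9.59 (-0.28, SE 0.077, adjusted p = 0.0123), and at 7.64, 7.08 and 8.29 at 1/10 LD50 on day 3 (-0.25, SE 0.077, adjusted p = 0.0438). Ern1 (IRE1), with group means between 1.81 and 2.40 FPKM, fell at 1/5 LD50 on day 3 (-0.27, SE 0.085, adjusted p = 0.0452). When each library's trend on transcript length was removed, none of these 4 calls remained: the differences were -0.27 for Eif2ak3 (adjusted p = 0.0775), -0.10 and -0.11 for Atf6 (adjusted p = 0.501 and 0.521) and -0.14 for Ern1 (adjusted p = 0.371).

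Of the degradation factors, Herpud1, a membrane scaffold of the retrotranslocation complex, fell in 5 comparisons. It was at 28.6, 27.4 and 26.0 FPKM in saline, 19.8, 18.0 and 19.2 at 1/10 LD50 (-0.50, SE 0.087, adjusted p = 0.00238) and 18.2, 20.05 and 21.0 at 1/2 LD50 on day 1 (-0.45, SE 0.087, adjusted p = 0.0212). At day 3 it was at 21.9, 20.5 and 21.6 (1/10), 19.7, 21.4 and 23.0 (1/5) and 24.2, 24.8 and 21.7 FPKM (1/2 LD50), and at day 7 at 23.7, 23.4 and 23.2 (1/10), 28.1, 29.9 and 26.6 (1/5) and 20.03, 19.97 and 23.8 (1/2 LD50). The 1/5 LD50 libraries of day 7 overlapped saline, and at day 14 this dose had its highest mean, from libraries at 32.8, 31.5 and 32.3 FPKM. Sel1l, the adaptor of the ubiquitin ligase, was at 34.2, 30.5 and 32.2 FPKM in saline and fell on days 3 and 7, with 23.4, 24.4 and 24.4 at 1/2 LD50 on day 3 (-0.41, SE 0.072, adjusted p = 0.00096) and 24.8, 28.8 and 22.9 at 1/5 LD50 on day 7 (-0.33, SE 0.072, adjusted p = 0.00187). Sel1l did not pass at day 1 and passed at 5 of the 6 groups of days 3 and 7. With the length trend removed its day 7 calls were lost (differences of -0.12, -0.20 and -0.21 for the doses in rising order; adjusted p = 0.181, 0.0612 and 0.0647).

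Syvn1 (HRD1), the ubiquitin ligase itself, was at 15.2, 15.2 and 15.1 FPKM in saline and fell in 4 comparisons, to 13.1, 11.6 and 13.6 at 1/10 LD50 on day 3 (-0.24, SE 0.059, adjusted p = 0.0126). Derl1, a channel component, fell only at 1/10 LD50 on day 7 (18.5, 15.9 and 9.96 against 19.6, 17.7 and 18.0 FPKM; -0.34, SE 0.11, adjusted p = 0.0336), where replicate 3 was lowest. Derl3, at 1 FPKM or more in 22 of the 39 libraries, fell only at 1/2 LD50 on day 3, with 0.492, 0.745 and 0.751 FPKM against 1.48, 1.21 and 1.17 (-0.46, SE 0.13, adjusted p = 0.0205). Edem1, a lectin of glycoprotein degradation, and Derl2 passed in none of the 12 comparisons. Of the translocation genes, Sec61a1, the channel subunit, fell only at 1/10 LD50 on day 7 (20.7, 15.9 and 15.3 against 21.6, 21.1 and 20.8 FPKM; -0.29, SE 0.073, adjusted p = 0.00766), again with the libraries of high mitochondrial share lowest. Sec61b, a small channel subunit, and Ssr1, a translocon-associated protein, passed in none. Sec61b was above all saline libraries at 1/5 LD50 on day 7 (23.1, 24.5 and 25.2 against 18.8, 17.3 and 17.3 FPKM), short of the threshold (0.43, SE 0.16, adjusted p = 0.0626).

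**Figure D2:**
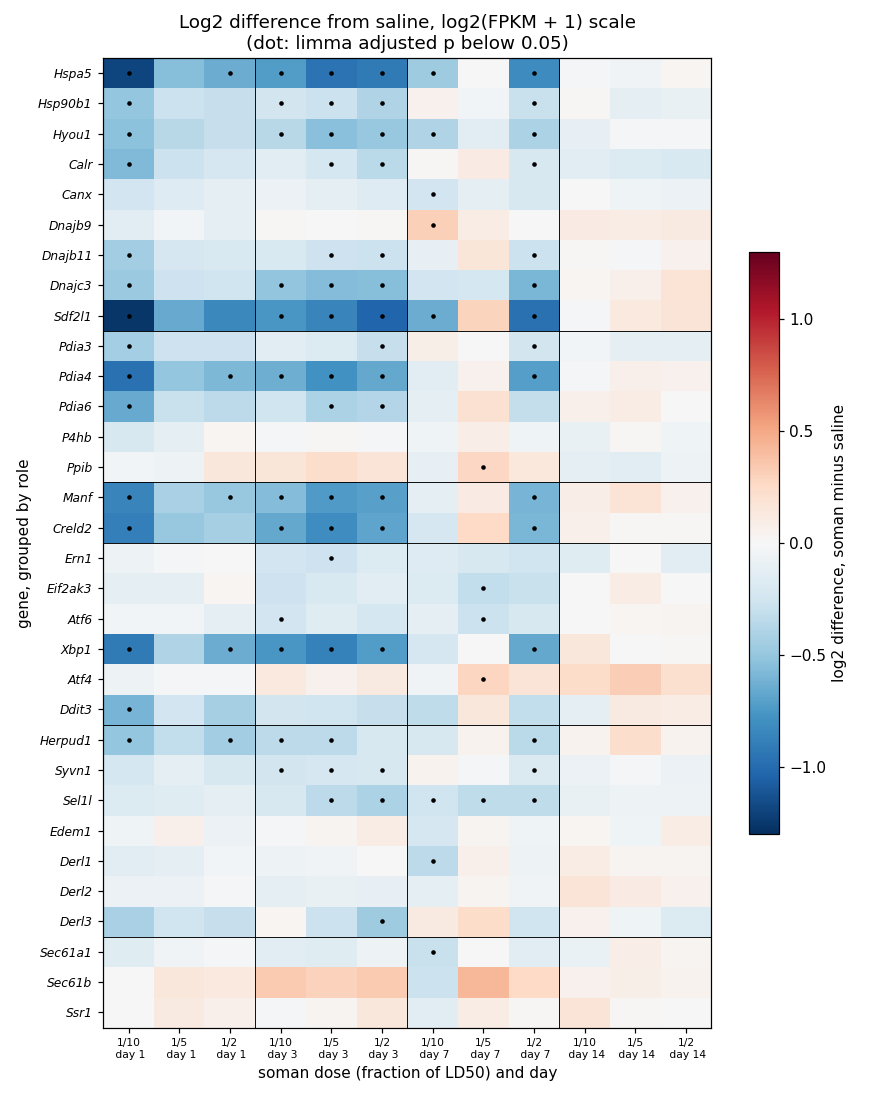
Log2 difference from saline of the 32 tested genes (rows, grouped by role) in the 12 soman groups (columns, by day and then dose), on the log2(FPKM + 1) scale; dots mark an adjusted p below 0.05. The rows of Hspa5, Hyou1, Sdf2l1, Pdia4, Manf, Creld2 and Xbp1 hold dots at 1/10 LD50 on day 1 (Hspa5 -1.19), at all doses of day 3 and at 1/2 LD50 on day 7 (Hspa5 -0.82), and the day 14 columns hold no dot.

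The counts by group follow from these levels. At 1/5 LD50 on day 1 no gene of the 32 passed, against 0.0136% of all tested genes that fell and 0% that rose (843 of all tested genes had an unadjusted p below 0.05), although in 20 of the 32 all libraries lay below saline (9.98% of all tested genes). At 1/2 LD50 on day 1, 5 fell (Hspa5, Pdia4, Manf, Xbp1 and Herpud1) against 0.0884% of all tested genes, and none rose against 0.0272%. These 5 calls are not stable: leaving out any 1 of the 3 libraries of saline left 1, and leaving out replicate 1, 2 or 3 of 1/2 LD50 left 0, 3 and 0. Without the 7 libraries, which leaves 2 in each group compared, none passed, with differences of -0.62 for Hspa5, -0.55 for Pdia4, -0.45 for Manf, -0.64 for Xbp1 and -0.53 for Herpud1 that were about as large as with them. Without the 2 of high mitochondrial share 6 were called. At 1/5 LD50, 3 genes passed once its replicate 2, or the 2 libraries of high mitochondrial share, were left out.

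On day 3 the genes that fell were 12 of 32 at 1/10 LD50 (5.36% of all tested genes), 16 at 1/5 (6.12%) and 16 at 1/2 (4.65%), and none rose (1.61%, 2.48% and 3.79%). Both secreted factors, Hspa5, Hsp90b1, Hyou1, Dnajc3, Sdf2l1, Pdia4, Xbp1 and Syvn1 fell at each of the 3 doses. The median difference of the 32 was -0.22, -0.25 and -0.25, against 0.0012, 0.01 and 0.04 for all tested genes. Without the 7 libraries 6, 8 and 10 of these genes still passed, and without the 2 of high mitochondrial share 13, 17 and 18 genes were called. At 1/10 LD50 the count was 7 without saline replicate 1, and at 1/5 LD50 it was 10 without saline replicate 1, without saline replicate 3 or without its own replicate 2.

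Day 7 differed by dose. At 1/10 LD50, 7 genes fell (15.3% of all tested genes) and Dnajb9 rose (4.23%), a share not far from that of all genes. None of these 8 calls was left without replicate 3 of the group, or without the 7 libraries. None was left without the 2 libraries of high mitochondrial share either, but the group then holds replicate 1 only and the spread comes from the other groups. The count was 5 without any 1 saline library and 13 without replicate 1 of the group. At 1/5 LD50 only Sel1l, Eif2ak3 and Atf6 fell (8.87%), while Atf4 and Ppib rose (6.49%), and the median of the 32 was 0.05 against 0.03 for all tested genes. This count of 5 became 2 without saline replicate 2 or without replicate 2 or 3 of the group, and 1 without saline replicate 3, without the 7 or with the length trend removed. At 1/2 LD50, 15 genes fell (6.68%) and none rose (1.71%), with a median of -0.26 against -0.0014. There all libraries lay below saline in 23 of the 32 genes (18.7% of all tested genes), and 6 calls remained without the 7 (Hspa5, Pdia4, Manf, Xbp1, Dnajc3 and Sel1l).

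On day 14 none of the 32 genes passed at any dose. Of all tested genes 0.388%, 0.102% and 0.333% fell and 0.0476%, 0.0612% and 0.0816% rose at 1/10, 1/5 and 1/2 LD50, and 1655, 1522 and 1313 had an unadjusted p below 0.05. The medians of the 32 were 0.01, 0.02 and 0.02. In 5, 3 and 4 of them all libraries lay below saline, against 15.9%, 9.43% and 11.3% of all tested genes. In 2, 4 and 2 of them all libraries lay above saline, a share not computed for all tested genes. Hspa5 differed from saline by -0.01 (SE 0.13), -0.04 and 0.02 on the log2 scale, and Pdia4 by -0.03 (SE 0.10), 0.07 and 0.05. Calr, without passing, stayed below all saline libraries (211.2 to 212.5 FPKM) at each dose. Its libraries were at 187.0 to 202.8, 175.1 to 197.8 and 180.2 to 187.6 FPKM for the doses in rising order. Over all 36 soman libraries against saline, 10 of the 32 fell (2.16% of all tested genes) and none rose (0.415%), Hspa5 with -0.53, SE 0.092, adjusted p = 0.0033. That count rests on the saline libraries: it was 2 without replicate 1 or 2 of saline, and 0 without replicate 3 or without the 7.

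**Figure D3:**
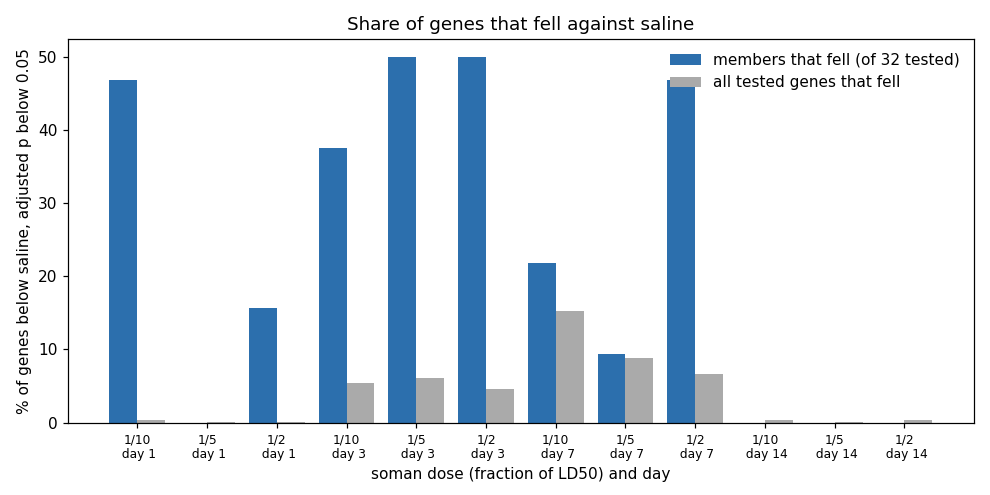
Share of genes (%, from 0) below saline with an adjusted p below 0.05 in each soman group, for the 32 tested members (blue) and all 14701 tested genes (grey). At 1/10 LD50 on day 1 15 of 32 members fell against 0.279% of all genes, at 1/10 LD50 on day 7 7 of 32 against 15.3%, and on day 14 no member fell.

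The days were also compared with each other over the 3 doses, without saline in the contrast. As no saline group is given for each day, a change with time after soman cannot be told apart from a difference between collection days. Any difference among days was found for 27 of the 32 genes, against 49.5% of all tested genes. From day 1 to day 14, 21 of the 32 rose (7.27% of all tested genes) and none fell (7.67%). The mean rise was 1.02 on the log2 scale for Sdf2l1 (SE 0.12, adjusted p = 7.65e-07), 0.79 for Hspa5 (SE 0.072, adjusted p = 9.38e-09) and 0.71 for Pdia4 (SE 0.060, adjusted p = 2.43e-09). Manf, Xbp1, Creld2 and Herpud1 rose by 0.70, 0.71, 0.64 and 0.53. All chaperones and co-chaperones rose in this comparison, Canx and Dnajb9 included, whereas Ppib, P4hb, the 3 sensors, Sel1l, Edem1, Derl1 and the translocation genes did not pass. Without the 7 libraries 17 of the 21 still passed. In the same comparison 10 of 15 meningeal fibroblast, 6 of 10 oligodendrocyte, 4 of 10 microglia, 3 of 10 astrocyte and 3 of 10 endothelial markers fell, with medians of -0.31, -0.28, -0.22, -0.11 and -0.09. Their part in the result was not tested.

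From day 1 to day 3, 4 genes fell (Sel1l, Ern1, Dnajc3 and Atf6; 10.6% of all tested genes) and 4 rose (Atf4, Calr, Pdia3 and Ppib; 12.9%). This count of 8 became 5 without 1/10 LD50 day 1 replicate 2, 2 without the 7 libraries and 4 with the length trend removed. From day 1 to day 7, 17 rose (10.2%) and 4 fell (14.8%), the latter being Sel1l, Ern1, Eif2ak3 and Atf6. Calr rose by 0.33 (SE 0.036, adjusted p = 1.86e-07) and Pdia4 by 0.42 (SE 0.060, adjusted p = 8.44e-06), means over doses that differed on day 7. With the length trend removed, none of the 4 falls from day 1 to day 7 passed (adjusted p from 0.055 to 0.943).

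Between 1/2 and 1/10 LD50 over the 4 days no gene of the 32 passed, against 0.0068% of all tested genes that fell and 0.034% that rose (2918 with an unadjusted p below 0.05). Without 1/10 LD50 day 7 replicate 1, 7 did. On day 1 alone only Calr was higher at 1/2 than at 1/10 LD50 (171, 197 and 180.4 against 149, 129 and 148 FPKM; 0.36, SE 0.063, adjusted p = 0.00878), against 0.184% of all tested genes that were higher and 0.0544% that were lower. This call was lost without 1/10 LD50 replicate 2 or without replicate 2 or 3 of 1/2 LD50 on that day, and without the 7. Of the 10 oligodendrocyte markers 1 was higher and none lower in this comparison of day 1, with a median of 0.57, and their part was not tested.

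The dose effect differed between days for 8 of the 32 genes by the F-test of the interaction (1.59% of all tested genes): Pdia4, Calr, Hspa5, Manf, Creld2, Xbp1, Hsp90b1 and Dnajb11. On day 7, 9 genes were lower at 1/2 than at 1/5 LD50 (0.102% of all tested genes) and none was higher (0.0136%), a comparison added after the data were seen. They were Hspa5 (-0.82, SE 0.13, adjusted p = 0.00133), Pdia4 (-0.77, SE 0.10, adjusted p = 0.000493), Manf (-0.71, SE 0.10, adjusted p = 0.000741), Creld2, Sdf2l1, Xbp1, Pdia6, Dnajb11 and Calr. In each of the 9 the highest library of 1/2 LD50 was below the lowest of 1/5 LD50. As the 9 were chosen by this same comparison, that adds no support, and the share of all tested genes was not computed. Leaving out any 1 of the 39 libraries left 6 to 10 calls, and a model of only the 2 groups compared gave 3 (Sdf2l1, Manf and Creld2). The interaction count was 19 without 1/10 LD50 day 7 replicate 1 and 0 without the 7 libraries, for which the adjusted p of the 8 genes was from 0.214 to 0.516.

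**Figure D4:**
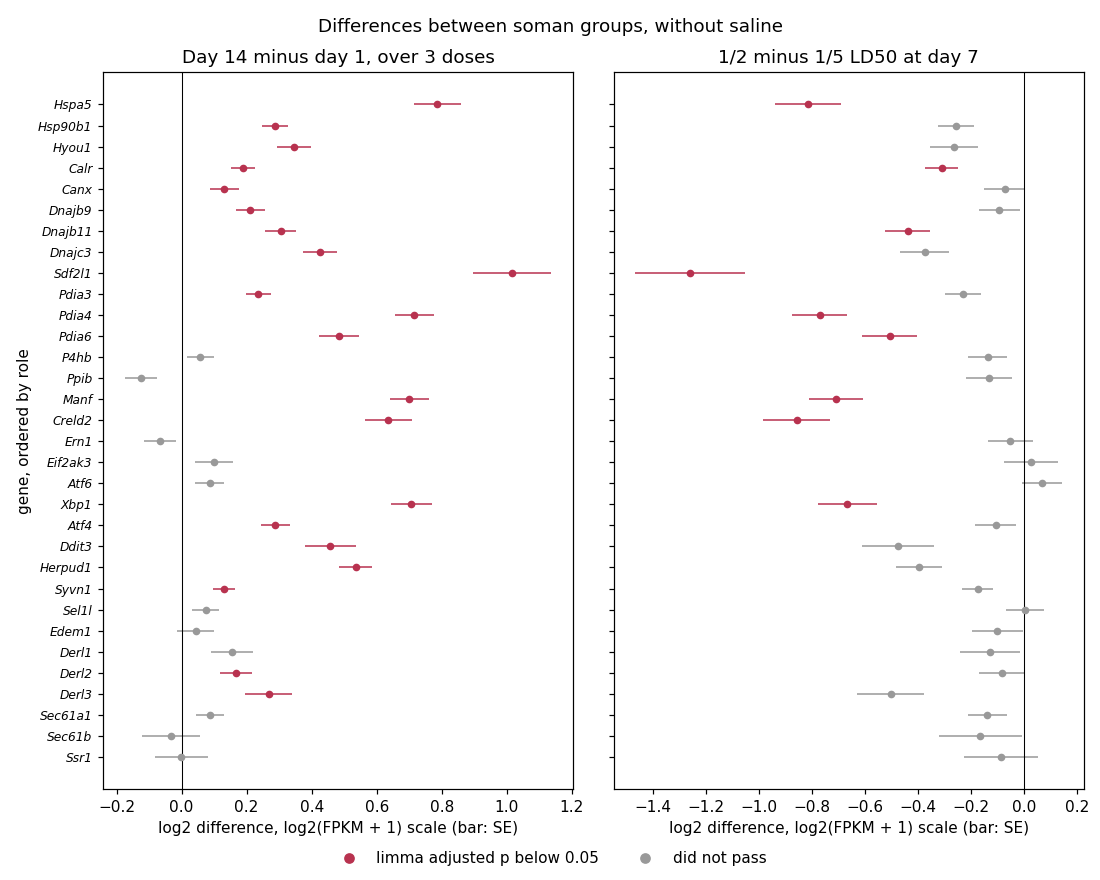
Differences between soman groups on the log2(FPKM + 1) scale for the 32 tested genes, day 14 minus day 1 over the 3 doses (left) and 1/2 minus 1/5 LD50 on day 7 (right). Points are estimates, bars the SE, and red points have an adjusted p below 0.05: 21 genes on the left, all above 0 (Sdf2l1 1.02), and 9 on the right, all below 0 (Sdf2l1 -1.26).

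The genes with an ERSE or ERSE-II in the promoter window (11, all tested) and those with neither (17, of which 16 were tested) are set side by side as a description, with no test. At 1/10 LD50 on day 1, 8 of the 11 and 5 of the 16 fell (0.279% of all tested genes), with median differences of -0.50 and -0.13. At 1/5 LD50 on day 3, 9 and 5 fell (medians -0.28 and -0.13), against 6.12% of all tested genes. At 1/2 LD50 on day 7, 8 and 5 fell (medians -0.29 and -0.15), against 6.68%. At 1/2 LD50 on day 1, 2 and 2 fell (medians -0.29 and -0.05), against 0.0884%. At 1/10 LD50 on day 7, 2 and 2 fell, against 15.3%, with the lower median in the genes with neither motif (-0.12 and -0.15). At 1/5 LD50 on day 7 none of the 11 changed while 2 of the 16 fell (8.87% of all tested genes) and 2 rose (6.49%). On day 14 none of either set passed, where at most 0.388% of all tested genes fell and 0.0816% rose. Sdf2l1, Pdia4 and Xbp1, with neither motif in the window, fell in 6 comparisons each. So did Hyou1 and Manf, which had no promoter window and are in neither set. Canx holds the ERSE and fell in 1 comparison only.

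The profile over the 13 group means was shared by a subset. Pearson's r with Hspa5, given as a description over 13 means that share libraries, was 0.98 for Manf and Pdia4, 0.97 for Xbp1, Creld2 and Sdf2l1, 0.96 for Pdia6 and Dnajb11 and 0.95 for Hyou1. Ppib (-0.38) and Sec61b (-0.20) were at the other end of the list. The ranking took tested genes with a mean of 5 FPKM or more and left out predicted, clone-named and mitochondrial genes. Outside the list the closest were Ncoa5 (0.96), Fxr1 (0.95), Chordc1 (0.93), Camk1g (0.93), P4ha1 (0.93), Frmd5 (0.92), Pfkfb3 (0.91) and Galnt9 (0.91). Manf, Pdia4, Xbp1, Creld2 and Sdf2l1 were the first 5 of all genes ranked in this way, before Ncoa5.

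Other genes of the pathway, from 6 lists of general knowledge with 132 tested genes, gave no call at day 1 or day 14 at any dose. In those groups at most 0.388% of all tested genes fell and at most 0.0816% rose, so the absence of calls says little. On day 3, 5, 6 and 7 of the 132 fell at the doses in rising order (5.36%, 6.12% and 4.65% of all tested genes). There 5, 3 and 8 rose (1.61%, 2.48% and 3.79%). On day 7, 27, 6 and 7 fell (15.3%, 8.87% and 6.68%) and 2, 15 and 2 rose (4.23%, 6.49% and 1.71%). The 2 genes of each list with the smallest p among days were examined. Uggt1, the glucosyltransferase that returns misfolded glycoproteins to calnexin, fell at all 6 groups of days 3 and 7 (1/10 LD50 on day 3: -0.33, adjusted p = 0.00173). Creb3l2, a membrane-bound transcription factor related to Atf6, fell at each dose of day 3 (1/2 LD50: -0.67, adjusted p = 0.000225) and at the higher doses of day 7.

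Edem3, a mannosidase of glycoprotein degradation, fell at each dose of day 3 and at the higher doses of day 7 (1/5 LD50: -0.38, adjusted p = 0.00148), and Vldlr, a lipoprotein receptor, fell at all 6 groups. Slc7a1, a cationic amino acid transporter, fell at each dose of day 3 and at 1/10 LD50 on day 7. Alg5, an enzyme of the lipid-linked sugar pathway, rose at each dose of day 3 (1/2 LD50: 0.44, adjusted p = 0.00241) and at the higher doses of day 7. Fkbp2 and Sec11c rose only at 1/5 LD50 on day 7 (0.41 and 0.38), Aup1 rose and Ppp1r15b fell only at 1/10 LD50 on day 7 (0.24 and -0.52), and Srp68 and Rpn1 did not pass against saline in any group. Calls of genes from the 6 lists are not followed here with the length trend removed or with libraries left out. That includes those at 1/10 LD50 on day 7, where replicates 2 and 3 had a high mitochondrial share.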

How the data were processed

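The deposited values are FPKM per gene, in 1 table of 39 libraries. RNA was selected with poly(dT) beads and reverse transcribed, per the labels' protocols. The submitters' processing notes name HISAT2 as a tool and GRCh38, a human build, although the samples are mouse. The program that computed FPKM, its annotation and the strandedness are not given in the sources used here. Depth is unknown, and so is the precision it gives.

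Groups were taken from the labels. Models were fitted in limma (version 3.58.1, R 4.3.3), with trended empirical Bayes moderation, on log2(FPKM + 1), which understates changes of low genes, with no covariate. P-values rest on the spread between samples within groups, pooled over all 13 groups and moderated over genes. They do not rest on the spread of the compared groups alone. The code was tested on simulated data. The members, lists and tests were chosen with earlier results of these data known. Named genes are all 33 members, with library values for those that passed at least 1 of the 12 comparisons with saline and reached a group mean of 5 FPKM (in saline and the groups where they stand out), the 2 genes of smallest p among days in each other list, and the 8 genes most like Hspa5. Transcript lengths (GENCODE vM21) were available for 95.9% of tested genes. Alternatives were another pseudocount, no filter, median-ratio scaling, removal of the length trend, a replicate block, other models and left-out libraries. Summaries were made in Python 3.11.15 (pandas 2.3.3, numpy 2.4.6) and plots in matplotlib 3.10.9. The promoter search used consensus letters of the motifs from general knowledge, which are therefore given by name only.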

Additional observations from a re-analysis of the deposited data

Results flagged for a closer look

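In 8 genes the effect of dose differed between days by limma's F-test of the interaction. Its contrasts used the 36 soman libraries, in the model of all 39. The adjusted p was 0.00376 for Pdia4, 0.00538 for both Calr and Hspa5, 0.0107 for Manf, 0.0114 for Creld2, 0.0139 for Xbp1, 0.0287 for Hsp90b1 and 0.0423 for Dnajb11. In all 8 the lowest of the 3 doses on day 1 was 1/10 LD50, and the lowest on day 7 was 1/2 LD50. Without the 7 libraries of intermediate values none of the 8 passed, and without the 2 libraries of high mitochondrial share Hsp90b1 did not (adjusted p = 0.0935).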

How the results depend on the processing

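Leaving out 1 library at a time, the number of members called was 12 to 14, 0 to 3 and 0 to 3 on day 1 (1/10, 1/5 and 1/2 LD50), 7 to 11, 10 to 14 and 12 to 15 on day 3, 0 to 13, 1 to 5 and 10 to 13 on day 7 and 0 to 0 for each dose on day 14. It was 0 to 12 for all soman against saline, 5 to 11, 21 to 24 and 20 to 23 for days 3, 7 and 14 against day 1, 26 to 30 for any difference among days, 6 to 19 for the interaction, 0 to 7 for 1/2 against 1/10 LD50 over the days, 0 to 2 for the same on day 1 and 6 to 10 for 1/2 against 1/5 LD50 on day 7.

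Without the 7 libraries the counts were 7 and 0 at 1/10 and 1/2 LD50 on day 1, 6, 8 and 10 on day 3, 0, 1 and 6 on day 7, 0 for all soman, 2 for day 3 against day 1, 0 for 1/2 against 1/10 LD50 on day 1 and 0 for the interaction. Without the 2 libraries of high mitochondrial share, which leaves 1 library at 1/10 LD50 on day 7 that is assumed to vary like the other groups, they were 3 at 1/5 LD50 on day 1, 0 at 1/10 LD50 on day 7, 1 at each dose on day 14 and 2 for 1/2 against 1/10 LD50 on day 1. There 1 difference changed sign, that of Derl1, 1/10 LD50 day 7 against saline, to 0.00689 on the log2 scale (adjusted p = 0.989). A model of the compared groups alone gave 9 at 1/5 LD50 on day 3, 0, 8 and 9 on day 7, 2 for 1/2 against 1/10 LD50 on day 1 and 3 for 1/2 against 1/5 LD50 on day 7. Median-ratio scaling gave 5 at 1/10 LD50 on day 7, 1 at 1/10 and 1/5 LD50 on day 14 and 2 for 1/2 against 1/10 LD50 on day 1. Removing the length trend gave 1 at 1/5 LD50 on day 7, 1 at 1/10 and 1/5 LD50 on day 14, 4 for day 3 against day 1 and 2 for 1/2 against 1/10 LD50 on day 1. With no filter, 3 passed at 1/5 LD50 on day 7. Apart from effects of fewer libraries or groups, the cause was not tested.

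Of the 197 single calls of a member in a comparison, 0 were lost with a pseudocount of 0.1, 13 with median-ratio scaling, 22 with no filter, 30 with the length trend removed and 92 without the 7 libraries. With the replicate number as a block 3 were lost (Atf6 at 1/10 LD50 on day 3, adjusted p = 0.0517, Ern1 at 1/5 LD50 on day 3, 0.0559, and Calr for 1/2 against 1/5 LD50 on day 7, 0.0544). The numbers do not pair the libraries: deviations of libraries of the same number correlated at -0.0029 on average, those of different numbers at 0.0016, and 14 of 39 libraries correlated best with their own number. Depth is unknown, so its limits cannot be given.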
